A study of Xenopus laevis with 20 samples.

Results

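The immediate response to Gata4 was measured in animal caps of Xenopus laevis, the roof of ectoderm that is cut from the blastula and that can be turned towards other germ layers. The comparison takes 8 of the 20 arrays of the study, the 4 arrays whose titles give Gata4-GR with no Dkk1 and the 4 arrays of uninjected caps. The arrays were chosen by their titles, 1 of which misspells uninjected, and not by their signals. The Gata4-GR embryos had received 10 ng of Gata4-GR mRNA at the one-cell stage, 20 degrees or so off the animal pole. Gata4-GR is Gata4 fused to the glucocorticoid receptor, which keeps the protein inactive until dexamethasone is added. The uninjected embryos had received no RNA. Caps of both groups were cut at stage 9 and kept for 2.5 hours with dexamethasone and with cycloheximide, which stops protein synthesis. The uninjected caps therefore share both drugs with the Gata4-GR caps, but an effect of injection and an effect of Gata4 cannot be told apart between these groups, because neither had a control RNA. The other 12 arrays, 4 each of Gata5-GR, Dkk1 and Gata4-GR+Dkk1, were prepared in the same way from embryos injected with 10 ng of each of those RNAs. The Gata4-GR+Dkk1 embryos thus received more RNA in total than the Gata4-GR or the Dkk1 embryos. In comparisons with their caps, an effect of the amount of RNA and one of the added RNA itself cannot be told apart. Neither the origin of the replicates (the same or other batches of embryos) nor the number of caps pooled is in the labels, so the tests below rest on differences from array to array that could be technical.

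Gata4 is a zinc-finger transcription factor that binds GATA motifs in DNA. In the vertebrate embryo it acts in the endoderm and in the heart-forming mesoderm. In Xenopus animal caps, Gata factors can switch on endodermal genes in cells that would otherwise form ectoderm. A gene that responds while protein synthesis is blocked does not need a newly made intermediate protein, which is why the experiment asks for immediate early targets. In such pooled tissue, more cells with a transcript and more transcript per cell cannot be told apart.

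No row of the deposited table could be tied to a gene, so each row is called by its place in the table, counted from 1. The signals did not follow the identifiers printed beside them. X. laevis carries an L and an S copy of many genes, and over 1017 such pairs the levels had a correlation across genes of 0.0092. The 93 rows annotated as ribosomal proteins, which are among the most abundant messages of any cell, had a median at percentile 42.6 of all rows. The order of the signals had a structure of its own. The mean normalized level went from 8.53 in rows 1 to 500 to 5.15 in rows 2001 to 2500, stood at 8.13 in rows 2501 to 3000, at 4.89 in rows 3501 to 4000 and stood at 8.42 in rows 4501 to 5000. Levels of neighbouring rows correlated at 0.404, as a description over all rows. The labelled tissue and the expected Gata targets could not be checked for the same reason. The columns carry the sample labels, so comparisons of groups do not rest on the identifiers.

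The signals are linear intensities of the array. Levels below are normalized log2(signal + 16) values, and changes are differences of these levels, so changes of rows with signals near or below 16 are understated. Median signals of the 8 arrays lay between 72.6 and 101, and 23.0% to 27.0% of the signals of an array lay under 16. Gata4-GR replicate 1 stood apart from the other arrays. Its mean correlation with the 19 other arrays was 0.959, while the other 7 arrays of the comparison had values of 0.972 to 0.980. In 24 rows listed as controls, rows 10 to 21 and rows 34 to 45, this array was above all 19 other arrays in 24 of 24 rows. Its excess over their median ran from 0.80 to 1.96 on the log2 scale. In the rows before and between these stretches it differed by a mean of -0.17 in rows 1 to 9, 0.13 in rows 22 to 24 and -0.18 in rows 25 to 33. It was also above all other arrays in some later rows listed as controls, such as rows 103 and 106. These stretches and rows were picked after their values were seen. Uninjected replicate 3 was lower than the median of the others by a mean log2 of -2.80 in rows 1 to 9, and differed by 0.03 in rows 25 to 33. Values without Gata4-GR replicate 1 are given beside the calls below.

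**Figure D1:**
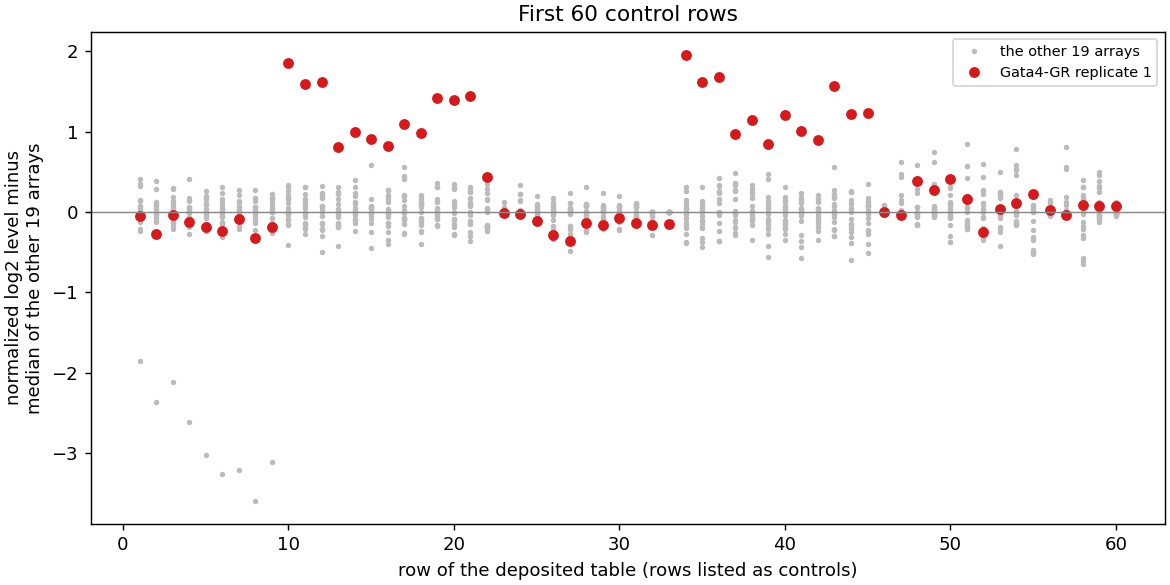
Normalized log2 level of the first 60 rows listed as controls, as the difference from the median of the 19 arrays other than Gata4-GR replicate 1, against the row of the table. Red points are Gata4-GR replicate 1, which lies above all grey points in rows 10 to 21 and 34 to 45; the low grey points in rows 1 to 9, with a mean of -2.80, are uninjected replicate 3.

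The first question was which rows differ between Gata4-GR and uninjected caps. With the replicate number as a block, 4 of 15491 rows passed the test, 2 higher and 2 lower in Gata4-GR caps, which is 0.0258% of the rows (limma, Benjamini-Hochberg adjusted p under 0.05). Without the block 2 rows passed, both higher, 0.0129% of the rows. Without Gata4-GR replicate 1 and with the block 3 rows passed, 2 higher and 1 lower, 0.0194%. The 2 higher rows, 5066 and 11897, passed in all 3 of these fits.

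Row 5066 went from the dim end of the table to near its bright end. Its signals were 2.3, 1.3, 2.7 and 1.8 in uninjected replicates 1 to 4. They were 1710, 2800, 1864 and 6272 in Gata4-GR replicates 1 to 4. The groups did not overlap, and among the 15491 rows its mean level ranked 15112 from the brightest in uninjected caps and 76 in Gata4-GR caps. The normalized level was 4.16 ± 0.05 (SD, n = 4) without and 11.28 ± 0.86 (SD, n = 4) with Gata4-GR. The log2 change, with its standard error (SE), was 7.12 (SE 0.30), with a 95% interval from 6.48 to 7.75 and an adjusted p by limma of 3.84e-10. Without the block the standard error was 0.47 (limma adjusted p = 6.65e-08), and without Gata4-GR replicate 1 the change was 7.21 (limma adjusted p = 1.49e-08). Because the uninjected signals lie far under the added 16, its size is set partly by that constant, and was 9.76 with 1 added and 5.27 with 64 added. Since the row has no identity, the injected RNA itself and a transcript of the caps cannot be told apart as its source.

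Row 11897 rose from a low level to a moderate one. Its signals were 17.7, 15.8, 17.5 and 28.9 in uninjected replicates 1 to 4. In Gata4-GR replicates 1 to 4 they were 70.0, 45.6, 83 and 117. Every Gata4-GR array lay above every uninjected array. The level was 5.07 ± 0.13 (SD, n = 4) without and 6.36 ± 0.31 (SD, n = 4) with Gata4-GR. The log2 change was 1.29 (SE 0.12), with a 95% interval from 1.04 to 1.54 and an adjusted p by limma of 4.25e-05. Without the block the adjusted p was 0.00113, and without Gata4-GR replicate 1 the change was 1.31 (limma adjusted p = 0.000268). Fitting these 8 arrays alone, the call was lost (limma adjusted p = 0.139). The range over its alternatives was 2.15e-05 to 0.139.

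The lower rows changed less, and their calls were less secure. Row 15271 had signals of 96.9, 45.7, 68.6 and 73.2 in uninjected replicates 1 to 4. In Gata4-GR replicates 1 to 4 it had 21.4, 24.8, 47.7 and 35.4. All 4 same-numbered pairs were lower, although Gata4-GR replicate 3 lay above uninjected replicate 2. The log2 change was -0.81 (SE 0.12, adjusted p by limma 0.0247). Without the block it did not pass (limma adjusted p = 0.175). Without Gata4-GR replicate 1 the change was -0.65 and passed (limma adjusted p = 0.0146). It did not pass without Gata4-GR replicate 4 (adjusted p = 0.112), nor without uninjected replicate 1, 2, 3 or 4 (adjusted p = 0.169, 0.0723, 0.0972 and 0.0732). Over its alternatives the limma adjusted p ran from 0.0130 to 0.833.

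Row 2140 was the other lower row. Its signals were 190, 102, 170 and 161 in uninjected replicates 1 to 4. In Gata4-GR replicates 1 to 4 they were 112, 86.0, 126 and 91.2. The pairs were all lower and the groups overlapped, since uninjected replicate 2 lay among the Gata4-GR arrays. The log2 change was -0.51 (SE 0.08, adjusted p by limma 0.0387). Without the block the adjusted p was 0.972, and without Gata4-GR replicate 1 it was 0.102. The call was also lost without Gata4-GR replicate 3 or 4 (adjusted p = 0.0970 and 0.260) or uninjected replicate 1, 3 or 4 (adjusted p = 0.172, 0.176 and 0.212). Over its alternatives the adjusted p ran from 0.00864 to 1.00.

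**Figure D2:**
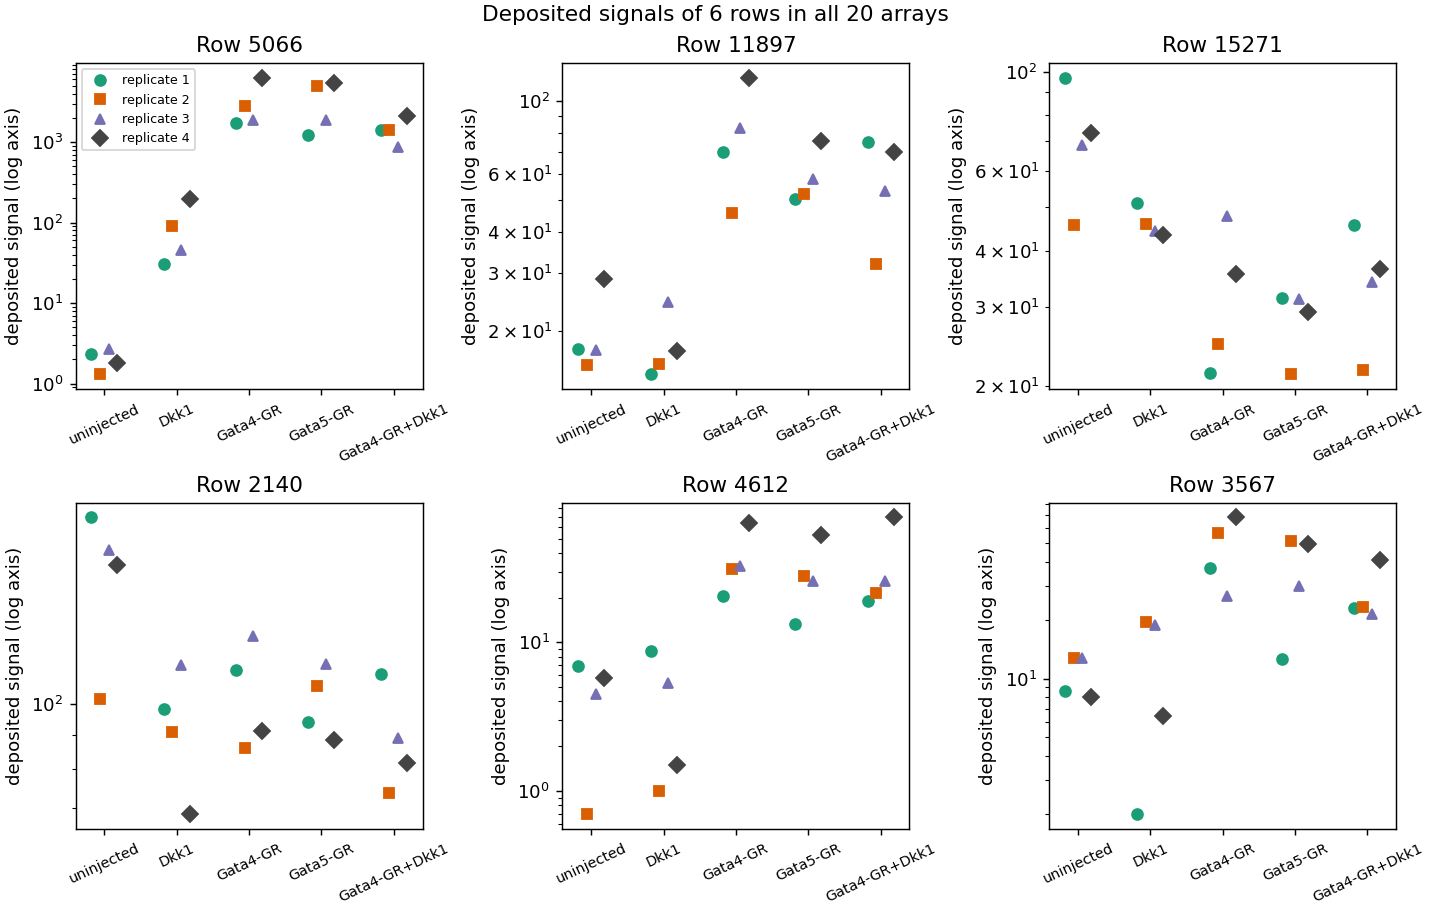
Deposited signals on log axes of 6 rows in all 20 arrays, by group, with 1 marker for each replicate number. In rows 5066, 11897 and 4612 all arrays with a Gata RNA are above all uninjected and Dkk1 arrays, and the Dkk1 arrays of row 5066 (30.8 to 198) lie between; rows 15271 and 2140 passed as lower in Gata4-GR caps, by 0.81 and 0.51 on the log2 scale.

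A further 5 rows passed in some of the other settings but not in the blocked fit of all arrays. Row 4612 had signals of 0.7 to 6.9 in the uninjected arrays and 20.5 to 64.1 in the Gata4-GR arrays. Its log2 change was 1.26 (SE 0.21, adjusted p by limma 0.0560), the nearest to the threshold. Row 3567 read 8.0 to 12.8 in uninjected and 26.7 to 67.9 in Gata4-GR arrays, a log2 change of 1.14 (limma adjusted p = 0.0979). Both groups of arrays were apart in these rows. Row 3618 read 2.1 to 4.6 and 13.7 to 36.5, a log2 change of 0.96 (limma adjusted p = 0.133), again with no overlap. Rows 2929 and 6590 passed as lower only when Gata4-GR replicate 3 was left out. Their log2 changes with all arrays were -0.90 and -0.52, with limma adjusted p of 0.341 and 0.209. Without Gata4-GR replicate 1 the log2 changes of rows 4612, 3567 and 3618 were 1.35, 1.05 and 0.88, and those of rows 2929 and 6590 were -0.72 and -0.42. None of the 5 passed there, with limma adjusted p from 0.106 to 0.649.

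Gata4-GR replicate 4 had the highest signal of the 4 Gata4-GR arrays in 8 of the 17 higher rows described here, rows 5066, 11897, 4612, 3567, 3618, 1175, 1330 and 2207. Replicate 1 was highest in 6 of the 17, replicate 2 in 3 and replicate 3 in 0. These counts use signals before normalization, with array medians of 86.6, 73.4, 101 and 98.9 in Gata4-GR replicates 1 to 4. The same count over all rows was not made. In row 5066 replicate 4 was the highest in each of the 4 injected groups, with 5421 in Gata5-GR, 198 in Dkk1 and 2124 in Gata4-GR+Dkk1 arrays. In uninjected arrays replicate 4 read 1.8 there, below replicates 1 and 3.

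Most of the table changed little. The fitted log2 changes had a median of -0.0014, with a 1st percentile of -0.52 and a 99th percentile of 0.49. Only 17 rows had a fitted change beyond 1 in either direction, 7 above and 10 below, and row 5066 was the single one beyond 2. The median standard error was 0.13. For 98.1% of the rows the 95% interval of the change lay within -1 to 1, and for 72.5% it lay within -0.5 to 0.5. An unadjusted p under 0.05 was found in 1601 rows, 10.3% of those tested, and one under 0.01 in 368 rows, 2.38%. The number under 0.05 was 1017 without Gata4-GR replicate 1 and 716 without the block, where 5% of the rows tested is 775. In 299 rows, 1.93% of those tested, the normalized levels of the groups did not overlap, with 173 higher (1.12%) and 126 lower (0.813%) in Gata4-GR caps. All 4 pairs had the same sign in 2206 rows, 14.2% of those tested. No chance level was worked out for the shares without overlap or with the same sign, so they are descriptions and no sign of a response.

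**Figure D3:**
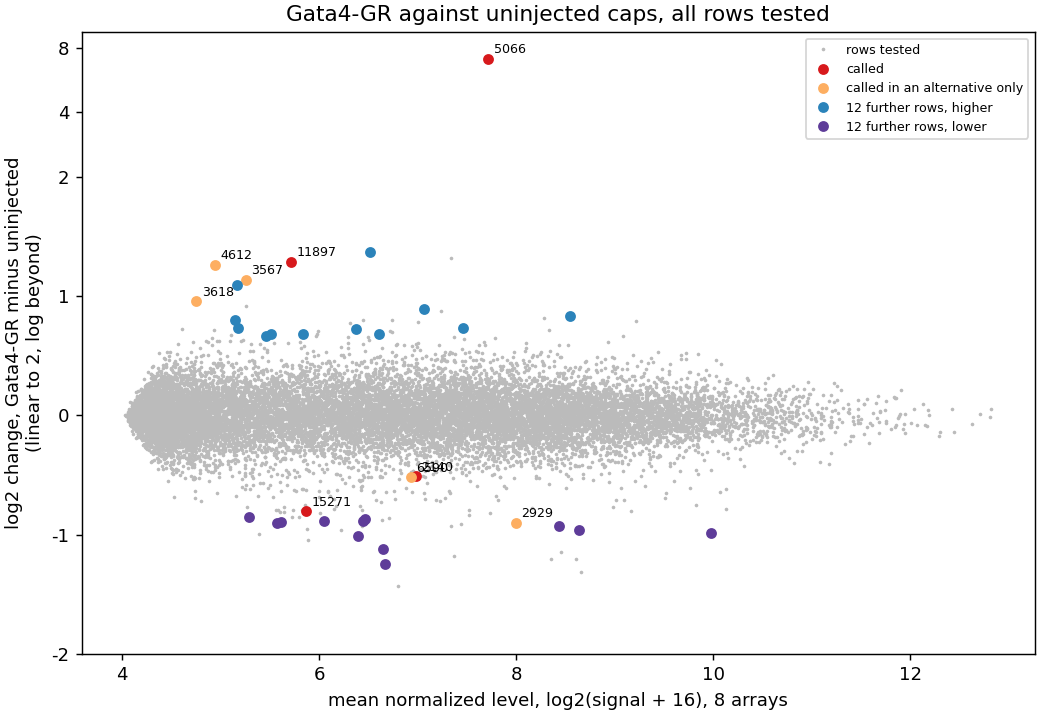
Log2 change of each of 15491 rows, Gata4-GR minus uninjected, against the mean normalized level over the 8 arrays; the vertical axis is linear to 2 and logarithmic beyond. Red points passed the test, and row 5066 at 7.12 stands far above all others.

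The 4 same-numbered pairs had little in common across the table. Differences of Gata4-GR and uninjected arrays had a standard deviation over rows of 0.55 in pair 1, against 0.29, 0.29 and 0.31 in pairs 2, 3 and 4. Pair 1 had 1012 rows beyond a difference of 1, and the others 67, 62 and 194. Differences of different pairs, which share no array, correlated across rows at 0.0064 to 0.123. Without the 9 rows called in any setting the range was -0.016 to 0.102.

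Beyond the 9 called rows, 24 more were described, by a rule that 255 rows met. It asked for an unadjusted p under 0.01, the same sign in 4 of 4 pairs and a mean signal of at least 32 in the higher group. Called rows were taken out, and the 12 highest and 12 lowest changes of the rest were described. The 255, which include called rows, are 1.65% of the rows tested. The rule used this comparison, so their direction here is a description and no test. None of the 24 passed, with limma adjusted p from 0.178 to 0.417. Without Gata4-GR replicate 1 the log2 changes ran from 0.37 to 1.08 in the higher and from -1.25 to -0.54 in the lower rows, and none passed.

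The 12 higher rows had log2 changes of 0.67 to 1.37. Row 1330 was the highest, with signals of 30.8, 19.6, 37.8 and 152 in uninjected replicates 1 to 4 and 186, 98.0, 147 and 190 in Gata4-GR replicates 1 to 4. Uninjected replicate 4 was far above the other uninjected arrays, and the pair differences ran from 0.32 in pair 4 to 2.09 in pair 1. Row 1175 read 6.0 to 14.4 in uninjected and 17.1 to 89.8 in Gata4-GR arrays, with no overlap and a log2 change of 1.09. Of the 12 rows, 6 had signals that did not overlap, as did 0.594% of all rows in the higher direction, and the rule that picked the 12 used the same comparison. The largest difference came from pair 1 in 6 rows, pair 2 in 4 rows, and pairs 3 and 4 in 1 row each.

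The 12 lower rows had log2 changes of -1.25 to -0.85, and 1 of them had signals that did not overlap, against 0.439% of all rows in the lower direction, again with the rule and the count from 1 comparison. That was row 555, with 140, 110, 114 and 343 in uninjected replicates 1 to 4 and 54.5, 52.7, 85.3 and 40.0 in Gata4-GR replicates 1 to 4. Its change was -1.25, and uninjected replicate 4 again stood above the rest. Row 348 was the brightest, reading 1231 to 2641 in uninjected and 392 to 1241 in Gata4-GR arrays. These rows leaned on replicates 1 and 4. The largest difference came from pair 1 in 6 of the 12 rows and from pair 4 in the other 6. The median difference was -1.52 in pair 1 and -1.55 in pair 4 but -0.43 in pair 2 and -0.39 in pair 3. Over all rows too, pairs 1 and 4 had more differences beyond 1 (1012 and 194) than pairs 2 and 3 (67 and 62). The count of the largest pair was not made over all rows, for the lower or the higher direction.

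Among the lower rows, 656, 657 and 658 are neighbours in the table. Over the 20 arrays the levels of rows 656 and 657 correlated at 0.968, and row 658 correlated with them at 0.537 and 0.504. The median over all neighbouring rows was 0.020. Rows 2206 and 2207, neighbours among the higher rows, correlated at 0.22. In row 657 the uninjected signals were 773, 232, 392 and 1858 and the Gata4-GR signals 458, 158, 387 and 315, with uninjected replicate 4 the highest of the 8. Rows 8638 and 8639, which had changes of -1.31 and -1.21 and did not meet the rule, correlated at 0.956. There uninjected replicate 4 was the low one of its group, with 175 and 199 against 423 to 1412 in the other uninjected arrays. These neighbours were picked after their values were seen.

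**Figure D4:**
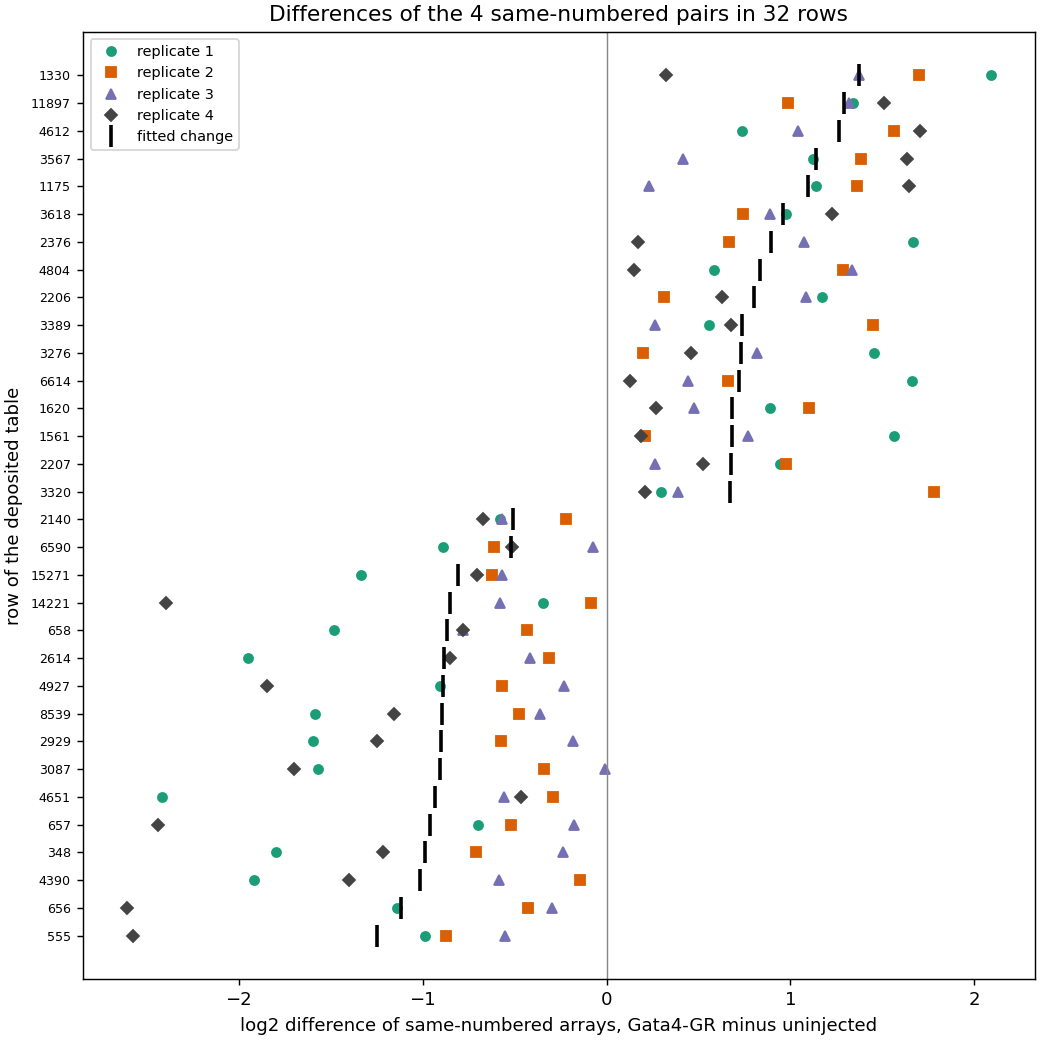
Log2 differences of the 4 same-numbered pairs, Gata4-GR minus uninjected, in the 32 described rows other than row 5066, with the fitted change as a black bar. In 13 of the 16 lower rows the replicate 1 and replicate 4 points both lie farther from 0 than the replicate 2 and 3 points. The same count over all rows was not made.

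The Gata4-GR+Dkk1 and Dkk1 arrays allow the Gata4-GR change to be read as a contrast of other arrays. Those arrays had entered the normalization, the block and the estimate of spread of the first comparison, so the comparisons are not independent. Dkk1 is a secreted protein that blocks the canonical Wnt pathway at its co-receptor, and the design used it to separate mesodermal targets. Of 15491 rows, 4 passed in this second comparison, 0.0258%, all higher with Gata4-GR. Rows 5066 and 11897 were 2 of them. Row 5066 read 30.8 to 198 in Dkk1 and 868 to 2124 in Gata4-GR+Dkk1 arrays, a log2 change of 3.88 (SE 0.30, adjusted p by limma 5.96e-06). Row 11897 read 14.8 to 24.6 in Dkk1 and 32 to 75.2 in Gata4-GR+Dkk1 arrays, a log2 change of 1.06 (SE 0.12, adjusted p by limma 0.000679). Row 2207, one of the 12 higher rows, also passed, with 9.4 to 14.8 and 29.7 to 46.1 and a log2 change of 0.97 (limma adjusted p = 0.0372). The remaining one was row 8294, with a log2 change of 0.72, which is not among the described rows. Without the block rows 5066 and 11897 passed (adjusted p by limma 0.00156 and 0.0177), and rows 2207 and 8294 did not (0.111 and 1.00). With the block but without Gata4-GR replicate 1, which this contrast does not use, all 4 passed, and so did 1 lower row. Rows 2207 and 8294 then had limma adjusted p of 0.0289 and 0.0352.

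Row 4612 was just outside the threshold again, with a log2 change of 1.25 (SE 0.21, adjusted p by limma 0.0606). Its signals were 1.0 to 8.7 in Dkk1 and 18.9 to 69.3 in Gata4-GR+Dkk1 arrays. The lower rows did not pass here. Row 15271 had a log2 change of -0.43 with a standard error of 0.12, and row 2140 one of -0.16 with a standard error of 0.08. Both were lower in 4 of 4 pairs, at an adjusted p of 1.00 for each.

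Of the 12 higher rows, 9 had the same sign with Dkk1 present, and 5 of these had an unadjusted p under 0.05. Of the 12 lower rows, 11 had the same sign and 2 of these an unadjusted p under 0.05. Over all rows the sign was the same in 52.9%, and the same with an unadjusted p under 0.05 in 2.11%. The changes were smaller than those the rows had been picked for. The median went from 0.73 to 0.39 in the higher rows and from -0.92 to -0.38 in the lower ones. Row 2206 went against its first direction, with 0.80 without Dkk1 and -0.29 with it, and was lower in 4 of 4 pairs with Dkk1. Row 1330 had 1.37 and 1.23, and row 3320 had 0.67 and 0.95.

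**Figure D5:**
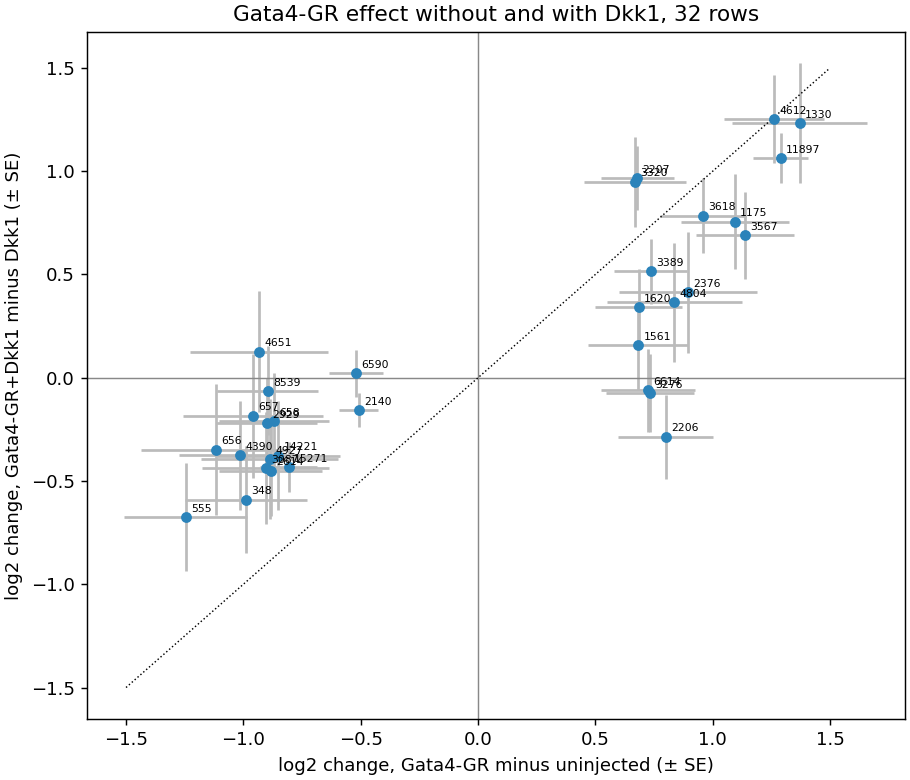
Log2 change of 32 rows in Gata4-GR against uninjected caps, across, and in Gata4-GR+Dkk1 against Dkk1 caps, upwards, with standard errors and a dotted line of equality. Row 5066 (7.12 and 3.88) is left off; rows 4612, 1330 and 11897 lie near the line at the upper right, and most lower rows lie nearer to 0 with Dkk1.

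Whether the Gata4-GR change differed with Dkk1 was tested directly. Only row 5066 passed, 0.00646% of the rows. The change with Dkk1 minus that without was -3.23 (SE 0.43, adjusted p by limma 0.0123), and without Gata4-GR replicate 1 it was -3.33 (adjusted p by limma 0.0402). Without the block 0 rows passed by limma (353 had an unadjusted p below 0.05), and row 5066 had an adjusted p of 0.990. The level of row 5066 in Dkk1 arrays, which had no Gata RNA, was 6.69 ± 1.04 (SD, n = 4), higher than in uninjected arrays by 2.53 (SE 0.30, adjusted p by limma 0.00156). Without the block, a fit added after the data were seen, that difference did not pass (adjusted p by limma 0.174). Between Gata4-GR+Dkk1 and Gata4-GR arrays, row 5066 differed by -0.70 (SE 0.30), which did not pass (adjusted p by limma 0.666). The change with Dkk1 minus that without was -0.23 for row 11897, with a 95% interval from -0.58 to 0.13. For row 4612 it was -0.01 with an interval from -0.65 to 0.63. For the lower rows 15271 and 2140 it was 0.37 (0.01 to 0.74) and 0.35 (0.11 to 0.60), and neither passed. An unadjusted limma p under 0.05 was found in 3 of the 4 called rows and 2 of the 5 called only in other settings. Over all rows it was found in 741 of 15491. The described rows were picked for their change without Dkk1, so these counts are no test.

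Gata5 is a close relative of Gata4, and its GR fusion was injected in the same way. Set against each other, the caps of both factors differed past the threshold in 0 rows by limma (0% of the rows). An unadjusted p under 0.05 was found in 1309 rows, where 5% of the rows tested is 775. Row 5066 read 1223 to 5421 in Gata5-GR arrays and differed by 0.18 with a 95% interval from -0.45 to 0.82, and by 0.092 without Gata4-GR replicate 1. Without that array 0 rows passed by limma (820 had an unadjusted p below 0.05), and without the block 0 rows passed (538 had one below 0.05). Row 11897 read 50.3 to 75.8 there and differed by -0.13 with an interval from -0.38 to 0.12. Row 15271 read 21.2 to 31.3 and differed by 0.01 with an interval from -0.25 to 0.27. Row 1330 differed by -0.77 with an interval from -1.38 to -0.16, and did not pass (limma adjusted p = 0.569). Against the same uninjected arrays, which both comparisons share, row 15271 had log2 changes of -0.81 with Gata4-GR and -0.80 with Gata5-GR. Row 4612 had 1.26 and 1.13. Other described rows were farther apart, with 0.89 and 0.07 in row 2376, 0.72 and 0.09 in row 6614, and -0.52 and 0.09 in row 6590. Between the 2 factors, an unadjusted limma p under 0.05 was found in 0 of the 4 called rows. It was found in 1 of the 5 called only in other settings, 4 of the 12 higher and 2 of the 12 lower rows. Over all rows it was found in 1309 of 15491. The described rows were picked for their Gata4-GR change, so the counts are no test.

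In 8 rows, 0.0516% of those tested, the normalized levels of all 12 arrays with a Gata RNA were apart from those of all 8 arrays without one. The 4 higher ones were rows 5066, 11897, 4612 and 1175. The 4 lower ones were rows 348, 555, 10711 and 15271. This separation is one of normalized levels. In the deposited signals, both sides were still apart in rows 5066, 11897 and 4612. They overlapped in rows 1175, 348, 555, 10711 and 15271. Row 1175 read 13.7 to 89.8 with a Gata RNA and 3.7 to 14.4 without. Row 4612 read 13.3 to 69.3 and 0.7 to 8.7. Row 10711, picked here after its values were seen, read 7.9 to 24.3 with a Gata RNA and 20.2 to 39.8 without. The Dkk1 arrays, which were injected, counted among the arrays without a Gata RNA when these rows were picked. Their place on the side of the uninjected arrays was therefore set by the selection and is no test of an effect of injection. All of these rows but row 10711 had been described before, from Gata4-GR and uninjected arrays. In rows 5066, 11897, 4612 and 15271 the log2 differences of Dkk1 and uninjected caps were 2.53, 0.11, 0.03 and -0.13. The 95% intervals were -0.14 to 0.36 for row 11897, -0.42 to 0.48 for row 4612 and -0.39 to 0.13 for row 15271. In rows 1175, 348 and 555 the differences were -0.03, -0.11 and -0.40. Their intervals were -0.52 to 0.46, -0.66 to 0.44 and -0.95 to 0.16. The selection bears on all of these differences too. Both comparisons share the uninjected arrays, and an effect of injection was not tested. In row 5066 the Dkk1 arrays lay between the uninjected arrays and those with a Gata RNA. Row 2140 was not among these 8 rows. Its Dkk1 signals of 68.7 to 114 overlapped the Gata4-GR ones, and its log2 difference of Dkk1 and uninjected caps was -0.28 with an interval from -0.45 to -0.10.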

How the data were processed

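Single-colour Affymetrix arrays were hybridised with biotinylated cRNA from total RNA, per the labels' protocols. Each deposited value is the intensity of a probe set, linear in scale judging by its range. How probes were summarised is not given in the sources used. Of 15611 rows, 120 listed as controls were left out. This rests on the identifiers, which the signals did not follow, so whether these 120 rows hold control signals is not known. With all rows tested, rows 5066, 11897, 15271 and 2140 passed for Gata4-GR against uninjected, as they did without the 120. A pseudocount of 16 was added, log2 taken, and the 20 arrays quantile normalized. limma 3.58.1 in R 4.3.3 fitted group means with the replicate number as a fixed block to all 20 arrays (eBayes, two-sided, Benjamini-Hochberg over 15491 rows). The code of the fit was tried on simulated data in which each row had the same spread in all arrays. Such data do not cover an array that stands apart, as Gata4-GR replicate 1 does. Groups and replicate numbers came from the sample titles. The number of arrays limits the precision. The arrays, the rule for described rows and the alternatives were chosen with earlier results of these data known. The described rows were those called in the blocked fit or in an alternative planned for it, and 12 more in each direction by the rule given in the text. Gene lists were not tested, because no row could be tied to a gene.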

Additional observations from a re-analysis of the deposited data

Results flagged for a closer look

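In 33 described rows, 66 groups of 4 normalized levels were checked for an array standing apart, and 3 were found (about 3.3 would be found by chance). Among the Gata4-GR levels of row 3276, replicate 1 had a level of 8.66 and the other Gata4-GR arrays 7.52 to 7.57. Without that array the log2 change of row 3276 was 0.50, against 0.73 with it. In row 555, uninjected replicate 4 had a level of 8.15 and the other uninjected arrays 6.92 to 7.06. In row 348, uninjected replicate 4 had a level of 10.97 and the others 10.27 to 10.36. The Gata4-GR change of row 5066 differed with and without Dkk1, by -3.23 on the log2 scale (limma adjusted p = 0.0123 over all rows, with the block). The call was lost without the block (limma adjusted p = 0.990) and with a pseudocount of 64. In this row Dkk1 minus uninjected caps gave 2.53, and Gata4-GR+Dkk1 minus Gata4-GR caps gave -0.70.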

How the results depend on the processing

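For Gata4-GR against uninjected, where 4 rows passed (2 higher, 2 lower), the count was 2 with no replicate block, 1 with only the 8 arrays (fewer arrays), 7 with median centring (5 higher, 2 lower), 2 with a common trimmed mean (both higher), 2 above the 50th percentile of level (fewer rows tested), and 2 to 6 when 1 array was left out. With no normalization all 4 were higher. Leaving out Gata4-GR replicate 1 without the block, added after the data were seen, gave 2. For Gata4-GR+Dkk1 against Dkk1, where 4 passed, the count was 2 with no replicate block, a pseudocount of 1 or one of 64. It was 2 to 3 without 1 of the contrast's own arrays. Without Gata4-GR replicate 1, which this contrast does not use, 4 higher rows and 1 lower row passed. The difference with and without Dkk1 had 0 rows with no replicate block or a pseudocount of 64. Gata5-GR against Gata4-GR had 1 row with a pseudocount of 1. The other causes were not tested. Row 5066 passed in 21 of 21 alternatives, row 11897 in 19 of 20, row 15271 in 9 of 20 and row 2140 in 9 of 21. None of the 33 described rows changed direction in any of them. The rows described beyond the called ones had been picked for the same sign in all pairs, so their unchanged direction is no test. Same-numbered Gata4-GR and uninjected arrays deviated from their group means with correlations of 0.060, 0.385, 0.440 and 0.569 for numbers 1 to 4. Number 1 is too low to show pairing, and Gata4-GR replicate 1 correlated more with another number (0.081), so the block follows the choice made for this comparison and unblocked values stand beside the calls.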
